A study of Ulva lactuca with 4 samples.

Results

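The 176 contigs described here were read heavily and at nearly the same level in all 4 libraries of Ulva lactuca, a sheet-forming green seaweed of the intertidal zone. They are 176 of the 105451 contigs of a de novo assembly. A contig is a stretch of transcript put together from the reads, and it carries an assembly identifier, with no gene name in the tables used here. The 4 libraries, 1 per condition, came from submerged thalli (the control) and from thalli that were desiccated at 20% moisture over 24 h, 36 h or 72 h. No source used here says whether thalli were pooled or at what time the control was taken. Reads were divided by a size factor per library, the median ratio of its counts to those of the average library, which gives scaled counts. A contig was chosen if it had at least 5000 scaled counts in each library and if its largest scaled count was at most 1.5 times its smallest. Those same counts are the levels and ratios below, which therefore describe the contigs and carry no test.

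An intertidal alga dries at low tide, and its cells lose water while the transcripts they hold are made and broken down at changing rates. Genes that every cell uses at all times, such as those for protein synthesis, the cytoskeleton and basic energy metabolism, are commonly read at a similar level under many conditions. Transcripts of this kind serve as references in quantitative PCR. A read count measures a transcript's share of the library and not its amount per cell, so a contig with a steady share can still change in amount if the total RNA of the cell changes. In bulk RNA, fewer cells and less RNA per cell cannot be told apart. The contigs were not matched to genes or to an organism, so thallus markers could not be checked, and RNA of microbes on the thalli could not be told from that of the alga. Contig lengths were not used here, so counts are compared between libraries for 1 contig and are not read as expression levels between contigs.

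The libraries held between 52643595 and 74243310 reads counted on contigs, and their size factors ran from 0.885 in the control to 1.15 at 36 h. Since each condition has 1 library, no difference could be set against a spread between thalli. Intervals are exact 95% Clopper-Pearson intervals for the ratio of a pair of counts. They cover counting error only, with the size factors taken as fixed.

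The contigs c50143_g1_i1 and c50143_g3_i1 stood far above the other steady contigs in reads. The contig c50143_g3_i1 had 2106547 reads in the control, 1992037 at 24 h, 1910228 at 36 h and 1886160 at 72 h. In scaled counts this was 2381120, 1769393, 1667152 and 2119275 in the same order. With this scaling it was thus highest in water, lowest at 36 h, and at 72 h closer to the control than at 24 h or 36 h. With library totals in place of these size factors, its lowest library was 24 h. Against the control, the ratio stood at 0.743 after 24 h (0.742 to 0.745), at 0.700 after 36 h (0.699 to 0.702) and at 0.890 after 72 h (0.888 to 0.892). Within 1.5-fold, it was therefore among the steady contigs with the wider movement, with a largest over smallest count of 1.43.

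The contig c50143_g1_i1 had 2106522, 1992066, 1910211 and 1886120 reads. The counts of this pair differed by 25 reads in the control, 29 at 24 h, 17 at 36 h and 40 at 72 h. For separate sets of reads, counting error alone would give a standard deviation of the difference between 1942 and 2053 reads, depending on the library. The pair was therefore far closer than separately sampled reads would be, and its reads cannot be taken as independent of each other. Together the pair took 8.0% of the reads of the control, 5.37% at 24 h, 5.38% at 36 h and 7.08% at 72 h. If the same reads were counted on both, these sums count them repeatedly, and 1 contig of the pair alone took 4.0%, 2.68%, 2.69% and 3.54%. The assembly places them in different clusters of component c50143, and the third contig there, c50143_g2_i1, had between 39 and 122 reads.

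The next most read steady contig, c22057_g1_i1, had 337589 scaled counts in the control, 298751 at 24 h, 287000 at 36 h and 342129 at 72 h. With this scaling, its control and 72 h values were nearly level, and the values at 24 h and 36 h lay below both. Against the control, the ratio stood at 0.885 after 24 h, at 0.850 after 36 h and at 1.01 after 72 h (1.01 to 1.02), and the largest over smallest count was 1.19. It took between 0.453% and 0.572% of the reads of a library. The contig c22119_g1_i1 had 70100 scaled counts in the control, 66539 at 24 h, 67009 at 36 h and 85819 at 72 h. With this scaling, 3 libraries were close together and the 72 h library stood above them, at 1.22 times the control (1.21 to 1.24). The height of this step depended on the scaling. The largest over smallest count was 1.09 with upper-quartile size factors. It was 1.48 with size factors from contigs with at least 5000 scaled counts in each library. In both, 72 h stayed the highest.

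All 176 steady contigs took 11.4% of the reads in the control, 8.41% at 24 h, 8.62% at 36 h and 10.4% at 72 h. Reads counted on several contigs enter these sums more than once. With contigs within 1% of each other's reads in every library counted once, the shares were 6.49%, 4.94%, 5.08% and 5.97%. Without the c50143 pair, the other 174 took 3.36%, 3.04%, 3.24% and 3.27%. The gap between the submerged and the 24 h library in the reads of the whole group was thus mostly that of the pair. Most members had far fewer reads: the median member had a mean of 8571 scaled counts over the 4 libraries, and 168 of the 176 had a mean under 20000. The lowest mean was 5489.

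With this scaling, the contig with the smallest movement was c65128_g1_i1. It had 8016 reads in the control, 10597 at 24 h, 10125 at 36 h and 8065 at 72 h. After scaling it had 9061, 9413, 8837 and 9062 counts, so that the control and 72 h values were the same to within 1 count. The largest value, at 24 h, was 1.07 times the smallest, at 36 h (1.04 to 1.095). Its ratio to the control had an interval that included 1 at 36 h (0.947 to 1.004) and at 72 h (0.970 to 1.03), and at 24 h it was 1.04 (1.01 to 1.07). The contig c19585_g1_i2 had 5612, 5512, 5491 and 6070 scaled counts in the order control, 24 h, 36 h and 72 h. The first 3 values lay close together and 72 h was the highest, with a largest over smallest count of 1.11. The contig c24037_g1_i4 had 5762, 5317, 5807 and 5244 scaled counts. Its control and 36 h values were the higher ones, and its ratio was also 1.11.

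Across the members, the largest over smallest count ran from 1.07 to 1.49, with a median of 1.297 and quartiles of 1.24 and 1.401. Of the 176, 1 lay at or under 1.1, 26 between 1.1 and 1.2, 62 between 1.2 and 1.3, 43 between 1.3 and 1.4, and 44 above 1.4. The coefficient of variation over the 4 libraries ran from 2.62% to 19.2%, with a median of 12.2%. The group thus filled the allowed range and did not gather at no movement at all.

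**Figure D1:**
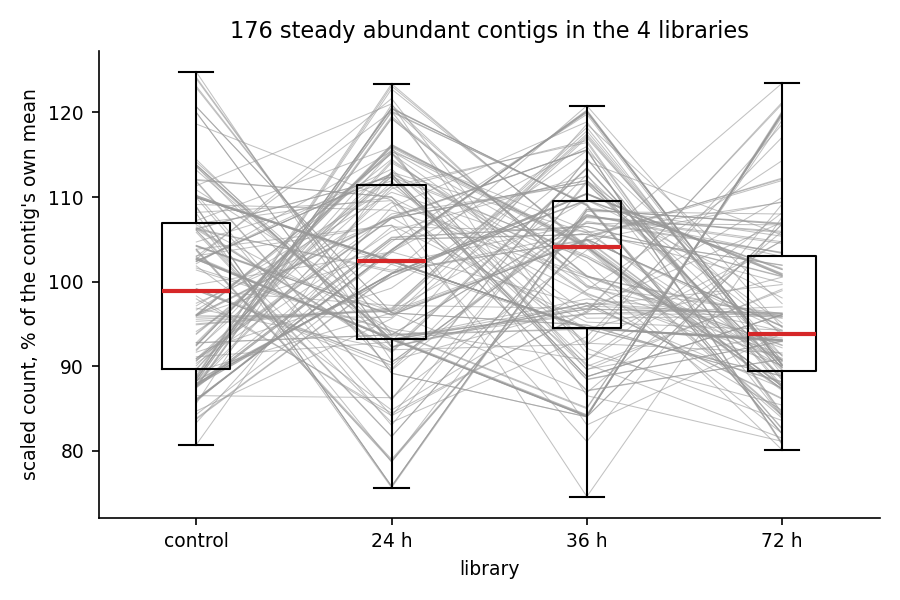
Scaled count of each of the 176 steady contigs in the 4 libraries, as a percentage of the contig's own mean over the libraries (thin lines, 1 per contig). Boxes give the quartiles and whiskers the full range. Red lines give the medians, 99.0% in the control, 102% at 24 h, 104% at 36 h and 93.8% at 72 h. Lines cross in both directions, and with this scaling the 72 h library has the lowest median.

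The member with the largest movement was c27073_g1_i8, with 7840 scaled counts in the control, 8522 at 24 h, 6093 at 36 h and 5712 at 72 h. It was higher in the first pair of libraries than in the last pair, and its ratio was 1.49. The contig c22472_g1_i4 had 9262, 12856, 10823 and 8737 scaled counts, with a high at 24 h and control and 72 h values near each other. The contig c27489_g1_i11 had the same order of libraries, with 5530, 7530, 6807 and 5122, and both had a ratio of 1.47.

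On the other side of the limit, c28088_g2_i6 had 9156, 8579, 8626 and 6093 scaled counts, a ratio of 1.503 (1.45 to 1.56). Its cluster partner c28088_g2_i1, at 1.506, was left out in the same way. In both, the 72 h library alone was low. At the count minimum, c27489_g1_i2 was a member with 5020 scaled counts in its lowest library, 72 h, and c26138_g1_i3 with 5039 there. The contigs c24742_g1_i1 and c24742_g1_i4 missed it with 4998 and 4997 scaled counts in the control. The interval of the first pair included the limit, so a contig near an edge could have fallen on either side.

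Contigs read at or above the minimum of 5000 in each library are called abundant here, and 176 of 648 were steady, a share of 27.2% (exact 95% binomial interval 23.8% to 30.8%). The median abundant contig had a largest over smallest count of 1.84, 283 were over 2-fold and 70 over 4-fold, and the highest was at 16.7. Among the 40796 contigs with a mean of at least 50 scaled counts, 10.7% were steady by the same limit. The minimum in each library leaves out contigs that dip below it, and this raises the share among abundant contigs. By the mean alone, steady contigs made up 16.0% of the 1475 contigs with a mean of 5000 to 20000 scaled counts and 16.3% of the 11235 with 1000 to 5000. They made up 4.03% of the 124 contigs with 20000 to 100000, which is 5 contigs. Above that, 3 of 23 were steady, and 2 of the 3 were the c50143 pair. Between 50 and 100 scaled counts the share was 3.64%, and the median largest over smallest count was 4.13. Counting error is relatively larger at low means, and its part in this share was not tested.

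**Figure D2:**
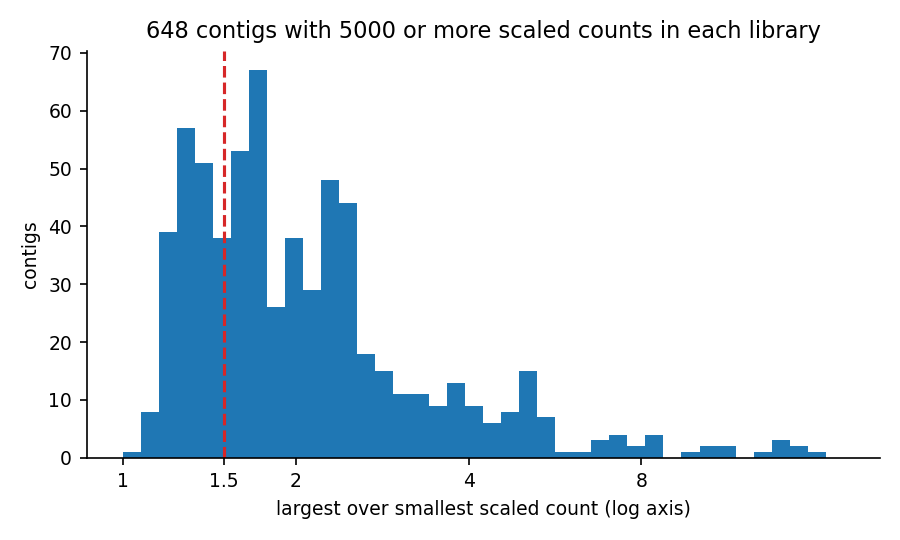
Largest over smallest scaled count of the 648 abundant contigs (log axis), as a histogram, with the limit of 1.5 as a dashed line. The 176 steady contigs lie left of the line with no gap at it, and the tail on the right reaches 16.7.

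**Figure D3:**
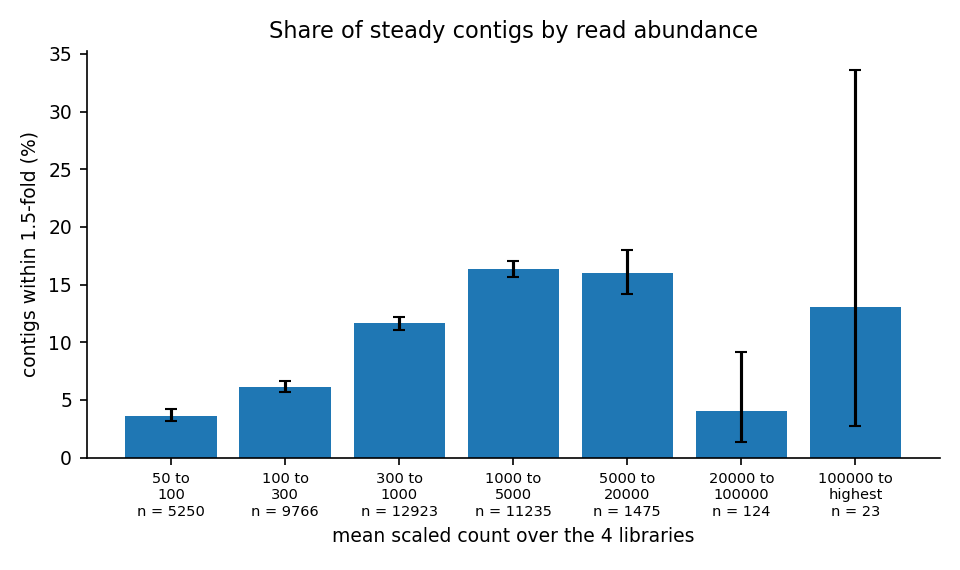
Percentage of contigs whose largest scaled count is at most 1.5 times the smallest, by mean scaled count over the 4 libraries, with exact 95% binomial intervals and the number of contigs (n) per class. The intervals treat contigs as independent, which contigs that share reads are not. The share climbs to 16.3% at 1000 to 5000, stays at 16.0% up to 20000, and is 4.03% at 20000 to 100000.

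Within the allowed range, the steady contigs leaned slightly to one side of the control, to a side that depended on the scaling. The shares of lower contigs are given beside those of the 648 abundant contigs and of all contigs with at least 50 scaled counts in either library of the pair. At 24 h, 77 of 176 were lower than in the control, 43.8% beside 44% of abundant contigs and 50.2% of all, and the median log2 ratio was 0.05 beside 0.17 for the abundant contigs. At 36 h, 74 were lower, 42.0% beside 43.7% and 51.9%, with a median log2 ratio of 0.03 beside 0.14. At 72 h, 103 were lower, 58.5% beside 54.2% and 48%, with a median log2 ratio of -0.05 beside -0.07. The shares lay near those of the abundant contigs at each duration. These 3 comparisons share the control library. The rule keeps each ratio within 1.5-fold, so the small medians follow from it.

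Few of the ratios were within counting error of 1. The interval of the ratio to the control included 1 for 16 of the 176 at 24 h (9.09%), for 29 at 36 h (16.5%) and for 23 at 72 h (13.1%), beside 3.24%, 5.71% and 5.25% of the 648 abundant contigs. For the other steady contigs the ratio differed from 1 by more than counting error, while a spread between thalli was not measured. The intervals take the size factors as fixed, so these counts hold for this scaling only. Within 1.1-fold of the control were 51 members at 24 h (29.0%), 50 at 36 h (28.4%) and 80 at 72 h (45.5%), beside 11.7%, 12.8% and 21.1% of the abundant contigs. The median distance from the control was 1.18-fold, 1.17-fold and 1.12-fold, beside 1.39-fold, 1.43-fold and 1.35-fold. The 176 were chosen by the limit of 1.5 and are part of the 648, so these gaps follow from the choice and are not a further result.

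Between the desiccated libraries, 84 of 176 were lower at 36 h than at 24 h, 47.7% beside 46.6% of abundant contigs and 52.1% of all, and the median log2 ratio was 0.01. At 72 h, 116 were lower than at 24 h, 65.9% beside 59.1% and 46.5%, with a median log2 ratio of -0.10. At 72 h, 131 were lower than at 36 h, 74.4% beside 70.8% and 49.5%, with a median log2 ratio of -0.09 beside -0.18 for the abundant contigs. With this scaling, the step from 36 h to 72 h was the most one-sided of the 6 pairs of libraries, both for the steady and for the abundant contigs. With library totals it was not for the steady contigs, of which 56.8% were lower, beside 59.7% at 72 h against the control. With size factors from abundant contigs, 49.2% of the abundant contigs were lower in this step.

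With TMM (edgeR's trimmed mean of M-values) and the upper quartile, most steady contigs stayed on the same side in each of the 6 pairs. The same held with the authors' size factors, but not with the other scalings. The authors' size factors are here a single set for all libraries, with the ratios of their comparisons with the control. For 72 h against 24 h and 36 h, the authors' own ratios of size factors were 0.831 and 0.772, which this set does not reproduce. With those, the median folds of the 176 were 0.888 and 0.945, also on the lower side. The authors gave no comparison of 36 h against 24 h. With size factors from the abundant contigs alone, chosen after the data were seen, 56 of the 176 were lower at 72 h than at 36 h, with a median log2 ratio of 0.12, and 71 were lower at 72 h than at 24 h. Against the control, 92 were then lower at 24 h, 105 at 36 h and 88 at 72 h, and 101 were lower at 36 h than at 24 h. With library totals, 103 were lower than the control at 24 h and 93 at 36 h, and 73 were lower at 72 h than at 24 h. With the upper quartile the lean at 72 h was wider, with 141 of the 176 lower than the control (80.1%) and a median log2 ratio of -0.23, 149 lower than at 24 h and 158 lower than at 36 h.

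The 72 h library gave the lowest count for 71 of the 176 (40.3%) and the highest for 23 (13.1%), with this scaling. Among all abundant contigs it gave the lowest for 33.8% and the highest for 16.8%. The 36 h library was highest for 63 steady contigs (35.8%, beside 23.8% of abundant contigs) and lowest for 31 (17.6% beside 11.0%). The 24 h library was highest for 53 (30.1% beside 30.7%) and lowest for 31 (17.6% beside 21.8%). The control was highest for 37 (21.0% beside 28.7%) and lowest for 43 (24.4% beside 33.5%). Each library was thus the highest for some steady contigs and the lowest for others. These counts depend on the scaling. With size factors from abundant contigs, 56 of the 176 were lower at 72 h than at 36 h, and 71 were lower than at 24 h.

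Many of the 176 shared a cluster of the assembly. Contigs that share a c and a g number form a cluster of the assembly, which can stand for 1 gene in several versions. The 176 lay in 73 clusters, of which 38 held 1 steady contig and 22 held 3 or more, the latter with 112 members in all. Of the members, 28 (15.9%) were the sole contig of their cluster, beside 25.2% of the 472 other abundant contigs. When contigs within 1% of each other's reads in every library were put together, the 176 fell into 114 groups. Of them, 94 members (53.4%) had such a near-identical partner among the members, beside 32.6% of the other abundant contigs with a partner among abundant contigs. Steady and other contigs do not stand on equal terms here, since contigs near each other in reads pass or miss the limit together. With a tolerance of 0.5% there were 130 groups, and with 5% there were 86.

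The largest near-identical group was in cluster c27669_g1, where 10 of 14 contigs were steady and 9 of the 10 lay within 1%. In the control these 9 had between 9121 and 9157 reads, at 24 h between 10799 and 10855, at 36 h between 10140 and 10198, and at 72 h between 7748 and 7802. Their standard deviation in the control was 11.5 reads, where separate sets of reads of that size would give 95.6 from counting error. Closeness in reads was what formed the group. The 10 steady contigs had ratios of 1.18 to 1.19, with the control as their highest library and 72 h as their lowest. The other 4 contigs of the cluster had between 663 and 1330 reads, and their ratios of 1.19 to 1.31 were also within the limit.

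Cluster c26457_g1 held 9 steady contigs of 11, with between 5381 and 10624 reads and ratios of 1.24 to 1.33. In each of the 9, 24 h was the highest library and 72 h the lowest. The remaining 2 contigs were not steady. The first, c26457_g1_i10, had 1476, 3298, 3008 and 1509 reads in the order control, 24 h, 36 h and 72 h, with a ratio of 1.76. The second, c26457_g1_i6, had 622, 622, 271 and 212 reads, a ratio of 2.97. The contigs named here with these ratios were picked after their values were seen, as part of a cluster chosen by rule.

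**Figure D4:**
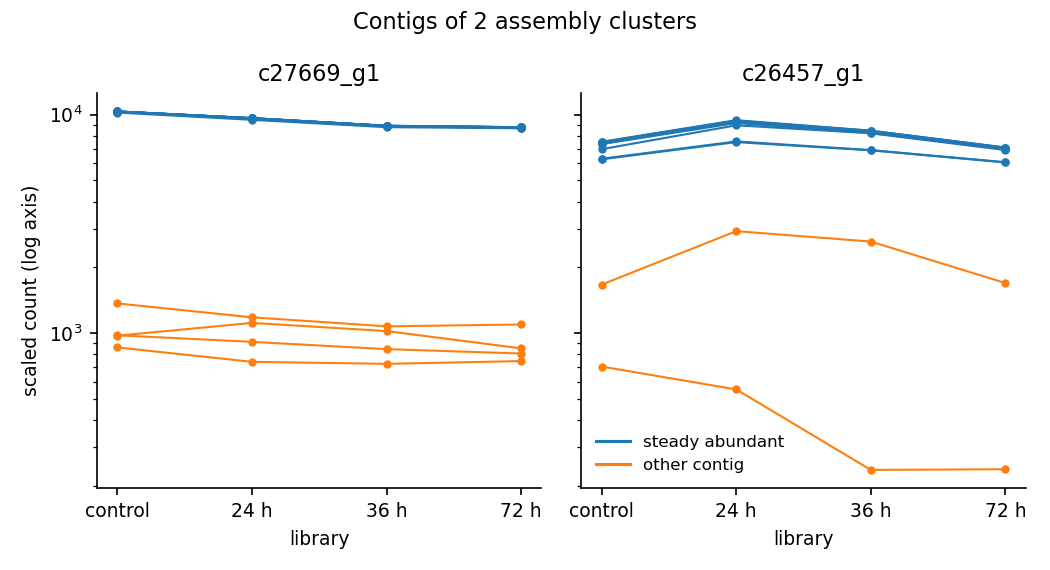
Scaled counts (log axis) of every contig of clusters c27669_g1 (left) and c26457_g1 (right) in the 4 libraries, 1 line per contig, in blue for steady abundant contigs and in orange for the rest. The blue lines of c27669_g1 lie on top of each other, and in c26457_g1 the 2 orange lines move more than the blue ones.

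Clusters with a steady contig held 131 further contigs. Among those below the abundance minimum and with a mean of 1000 to 5000 scaled counts, 41 of 57 (71.9%) were within 1.5-fold. In clusters whose abundant contigs were not steady, 8 of 93 (8.60%) were, and among all contigs with that mean 16.3% were. The values of these partner contigs were not part of the rule. Contigs of a cluster can share reads, so the partners are not independent of the members or of each other. No source used here says how reads matching several contigs were counted. Over all means of at least 50, the shares were 66 of 116 (56.9%) and 17 of 233 (7.30%). By cluster the gap was smaller. The 116 came from 32 clusters, of which 23 held a partner within 1.5-fold. The 233 came from 67 clusters, of which 15 did. In 71 of the 73 clusters with a member the sum of all contigs was within 1.5-fold. In 39 of the 73 every contig was a member, which fixes this by the rule, and in the others the members carry part of the sum.

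**Figure D5:**
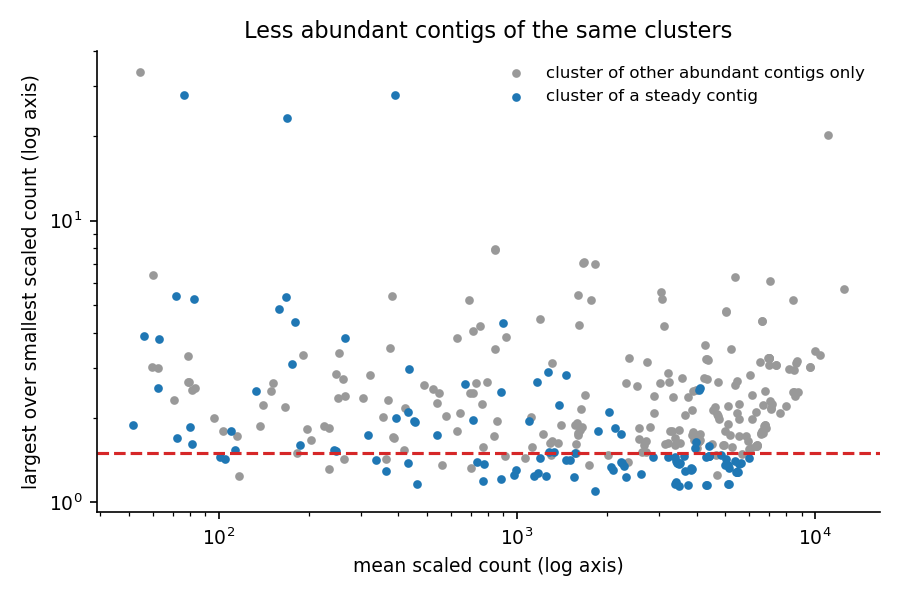
Mean scaled count (x, log axis) and largest over smallest scaled count (y, log axis) of contigs that are not abundant themselves and share a cluster with a steady contig (blue) or with other abundant contigs only (grey), 1 point per contig with a mean of at least 50. The dashed line marks 1.5; between 1000 and 5000 on the x axis, 41 of 57 blue and 8 of 93 grey contigs lie at or under it.

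Some clusters held a steady contig and a contig that moved. In the 2 clusters whose sum went past the limit, c27238_g2 and c27073_g1, the sums had ratios of 1.67 and 1.51. In c27238_g2, singled out after its values were seen, c27238_g2_i1 was steady, with 59648 scaled counts in the control, 77888 at 24 h, 85110 at 36 h and 63711 at 72 h. The other contig, c27238_g2_i2, had 46407, 46232, 77110 and 33306, a ratio of 2.32. Both were highest at 36 h, and at 24 h the first stood 1.31 times above the control while the second was level with it at 0.996 (0.983 to 1.01). Among the non-steady contigs of clusters with a member that reached 5000 scaled counts in a library, c27043_g1_i7 and c27043_g1_i1 moved most. The first had 2480, 6305, 3921 and 3747 scaled counts, and the second 2472, 6179, 3856 and 3739. Both were lowest in the control and highest at 24 h, with ratios of 2.54 and 2.50.

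In the authors' deposited tables, 0 of the 176 had a status of up or down in any of the 5 pairs of libraries used here. A status of up or down in the authors' deposited tables fell on 3.4% of the contigs with a p-value for 24 h against the control, on 2.75% for 36 h and on 3.27% for 72 h, and on 3.08% for 72 h against 24 h and 3.01% for 72 h against 36 h. Of all abundant contigs, the authors' deposited tables called 2 for 24 h against the control (0.309%), 17 for 36 h (2.62%) and 1 for 72 h (0.154%), 5 for 72 h against 24 h (0.772%) and 11 for 72 h against 36 h (1.70%). In the authors' deposited tables the unadjusted p-values of the steady contigs ran from 0.473 to 1 over the 5 pairs, and all their adjusted p-values were 1. The same counts chose the contigs, so this is a description. In the authors' deposited table of 24 h against 72 h, 11 of the 176 had a fold change beyond 1.5, down to 0.638. In the other 4 of the authors' deposited tables none of the 176 had, and their lowest and highest folds were 0.691 and 1.49.

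A core of 79 contigs in 37 clusters stayed within the limits under each of the 6 scalings tried. It held c22057_g1_i1, c22119_g1_i1, c19585_g1_i2 and c65128_g1_i1, and the 10 steady contigs of c27669_g1. For c65128_g1_i1 the largest over smallest count ran from 1.05 with TMM to 1.23 with the upper quartile. For c22057_g1_i1 the upper quartile gave the lowest ratio, 1.12, with the control as its highest library and 72 h as its lowest. Its highest ratio, 1.38, came with size factors from the abundant contigs. The pair of c50143 did not belong to this core, since the latter scaling gave it a ratio of 1.59.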

How the data were processed

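RNA of thalli in 4 conditions, 1 library each, was sequenced after extraction with a commercial plant kit and a TruSeq-type library preparation, per the labels' protocols. Per the submitters' processing notes, cutadapt, Bowtie2 and DESeq are the tools named; no source used here gives their versions, the assembler or how reads matching several contigs were counted. Each of 5 tables holds raw read counts per contig and library, deposited by the authors without normalization. Next to them stand scaled values, a signal which the authors obtained by dividing by a size factor per library and table, per the file headers. The fold change is the authors' deposited ratio of scaled values, and the p-value and adjusted p-value were deposited by the authors too.

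The counts of a library were identical in 6 of 6 repeats between tables. Median-of-ratios size factors were computed here over the 70998 contigs read in all 4 libraries. With 1 library per condition no test was run. The selection code was tried on simulated counts with counting error only, in contigs that were unchanged or changed beyond the limit. That checks the code and not the choice of contigs, since no spread between thalli and no shared reads were simulated. The members, the rule for named contigs (the extremes in mean count and ratio, the edges of the limits, the clusters with the most members) and the alternatives were chosen with earlier results of these data known. Alternatives were library totals, TMM, upper quartile, other count minimums and ratio limits, sums per cluster and leaving out each library; those added after seeing these values were near-identical contigs counted once, size factors from abundant contigs, the authors' size factors, and leaving out the c50143 pair. No contig has a gene name in the tables, so no gene list was applied. Calculations used Python 3.11.15, numpy 2.4.6, pandas 2.3.3, scipy 1.17.1 and edgeR 4.0.16.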

Additional observations from a re-analysis of the deposited data

How the results depend on the processing

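No paired analysis was possible because each condition has 1 library. The number of steady contigs, 176, stayed within 1.5 times under the 5 other scalings (137 to 185), but its makeup did not: 105 of the 176 were kept with the upper quartile, 151 with size factors from abundant contigs, 156 with library totals and 173 each with TMM and the authors' size factors. The upper quartile gave a steady share of 22.1% of abundant contigs. These scalings shift every log2 ratio by up to 0.15 at 24 h, 0.16 at 36 h and 0.18 at 72 h against the control. The limits decided the counts. In the order of steady contigs, their share of contigs over the minimum, and those lower than the control at 24 h, 36 h and 72 h, a minimum of 1000 gave 1866, 23.7%, 875, 791 and 951. A minimum of 10000 gave 25, 15.3%, 14, 13 and 17. At 24 h and 36 h slightly more of these 25 were thus lower than higher than the control. The c50143 pair, lower at both durations, is among the 25. The share of lower contigs among all those above this minimum was not computed. No minimum gave 5087, 7.16%, 2509, 2417 and 2833. The tighter ratio limit gave 60, 9.26%, 29, 28 and 34, and the wider one of 2 gave 365, 56.3%, 172, 155 and 195. Sums per cluster gave 353, 23.0%, 164, 156 and 176. Near-identical contigs counted once gave 114, 23.4%, 44, 47 and 68.

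Leaving out a library loosens the rule. Without the control, 434 contigs (48.6%) were steady. Without 24 h there were 353 (43.6%), with 190 lower than the control at 36 h and 212 at 72 h. Without 36 h there were 214 (31.8%). Without 72 h there were 276 (36.8%), with 119 lower at 24 h and 130 at 36 h. Of 68 recomputed read shares, 44 were higher and 24 lower than with the main settings, and 8 of 16 counts of members alone in their cluster stayed within 1.5 times.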
